A study of Mus musculus with 2 samples.

Results

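The Mir322 cluster is a run of microRNA genes on the minus strand of the mouse X chromosome, and its levels are described here in the embryonic heart. The rule for its members goes by name and uses no measured value: they are the rows of the deposited tables whose Ensembl identifiers map to Mir322, Mir503, Mir351, Mir542, Mir450-2, Mir450-1 and Mir450b. All 7 members have a row among 1973 microRNA gene rows, and all 7 had counts in both libraries. Mir450-1 and Mir450-2 are the loci also called Mir450a-1 and Mir450a-2.

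The study sequenced RNAs shorter than 30 nucleotides from healthy B6NCrl mouse hearts at embryonic day 13.5, with male and female embryos pooled. There is 1 group of 2 libraries, called replicate 1 and replicate 2 after the labels, from separate biosamples of the same donor record. No second genotype, treatment or age was part of it, so nothing can be compared between conditions. Any p-value here measures the difference between those libraries alone.

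A microRNA is cut from a hairpin in a longer primary transcript, and its bases 2 to 8, the seed, pair with target messenger RNAs that it represses. Several hairpins on the same primary transcript are released by the Drosha and Dicer enzymes, so they can differ in mature level although they are transcribed together. The cluster is known from muscle, where miR-322 and miR-503 lower the cell cycle phosphatase Cdc25a as mouse myoblasts leave the cell cycle. The same pair has been described as favouring the cardiac fate in differentiating mouse stem cells. The human counterpart of miR-322 is miR-424.

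The mature sequences show which members can be told apart and which share a seed. They are the RefSeq annotation's, on GRCm38.p6, written 5′ to 3′ with the seed in capitals. All 7 members matched an entry there. Those of the seed group of miR-322, with 2 relatives from elsewhere in the genome, are shown first.
miR-322-5p: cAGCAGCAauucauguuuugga
miR-503-5p: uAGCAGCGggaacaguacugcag
miR-15a-5p: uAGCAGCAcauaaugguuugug
miR-16-5p: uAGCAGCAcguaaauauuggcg
The miR-322-5p seed is identical to that of miR-15a-5p and miR-16-5p. That of miR-503-5p matches it from base 2 to base 7 and differs at base 8. Beyond the seed the sequences diverge to different degrees. Over all positions, miR-322-5p has the same base as miR-503-5p at 11 of 22 and as miR-16-5p at 12 of 22. It is closer to miR-15a-5p, at 15 of 22.

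miR-351-5p belongs to another seed group, that of miR-125, whose worm relative lin-4 was the founding microRNA.
miR-351-5p: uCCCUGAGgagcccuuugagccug
miR-125a-5p: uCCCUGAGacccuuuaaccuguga
miR-125b-5p: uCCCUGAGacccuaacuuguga
Past the seed, miR-351-5p keeps little of miR-125a-5p, with the same base at 10 of 24 positions in all.

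The distal members are miR-542, whose 3p strand is known in human cells to lower the apoptosis inhibitor survivin, and the miR-450 group. Their sequences are shown because 1 of them is made by 2 loci.
miR-542-3p: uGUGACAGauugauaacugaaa
miR-450a-5p: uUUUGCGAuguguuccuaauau
miR-450a-2-3p: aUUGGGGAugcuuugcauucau
miR-450a-1-3p: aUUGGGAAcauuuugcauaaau
miR-450b-5p: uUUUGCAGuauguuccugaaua
miR-450b-3p: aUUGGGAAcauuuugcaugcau
Mature miR-450a-5p has the same letters at Mir450-2 and Mir450-1, while the 3p strands of these loci differ. miR-450a-1-3p and miR-450b-3p share a seed and 20 of 22 positions.

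The counts in each row cover a whole hairpin. They do not separate its 5p and 3p strands, so each level below is that of the locus.

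On mm10 the hairpins run in transcript order from Mir322 (chrX:53054255-53054349) through Mir503 (chrX:53053984-53054054), Mir351 (chrX:53053255-53053353), Mir542 (chrX:53049403-53049487), Mir450-2 (chrX:53048299-53048367) and Mir450-1 (chrX:53048154-53048244) to Mir450b (chrX:53047997-53048078), a span of 6353 nucleotides. Mir322 and Mir503 lie 200 nucleotides apart and Mir503 and Mir351 630 apart. The widest gap, 3767 nucleotides, separates Mir351 from Mir542. The RefSeq gene C430049B03Rik, a long noncoding RNA at 53053112 to 53057190 on the X chromosome, holds the first 3 hairpins. In GENCODE M21, C430049B03Rik ends upstream of Mir322 and Gm28730 lies between Mir351 and Mir542, so neither spans a member. None of these annotated genes spans all 7 members, and other genes were not searched.

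Replicate 1 held 5569959 counts on the strand of a microRNA gene (sense counts) and replicate 2 held 6039005, and levels are counts per 1000000 of these (CPM). Reads on the opposite strand numbered 0 at all 7 members in both libraries. The heart's own markers were present, with cardiomyocyte microRNAs Mir208a, Mir208b and Mir499 summing to 50718 CPM in replicate 1, with 53387 CPM in replicate 2. Neural markers, the Mir124a and Mir9 loci, summed to 2.51 and 1.49 CPM, with 4 of 5 rows at 0. Each of these microRNAs has several loci. Reads that fit several of them may be missing from the rows, so the sum sets no limit on neural cells. Other cell types were represented too. Endothelial Mir126a had 74876 and 66025 CPM, the smooth muscle pair Mir143 and Mir145a summed to 85136 and 93532 CPM, and the erythroid pair Mir451a and Mir144 to 1159 and 897 CPM. Epithelial Mir200a, Mir200b and Mir429 summed to 1313 and 1046 CPM. Skeletal muscle Mir206 had 79.5 and 116 CPM, hepatocyte Mir122 201 and 591 CPM, and leukocyte Mir223 441 and 310 CPM. Which of these cells carried the Mir322 cluster was not tested, and in whole tissue fewer cells of a type and less RNA per cell cannot be told apart.

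The cluster was dominated by its first hairpin. Mir322 had 77629 CPM in replicate 1 (432391 counts) and 90777 CPM in replicate 2 (548204 counts). Its rank among all gene rows was 3 in both. It was 7.76% of all sense counts in replicate 1 (exact Clopper-Pearson 95% interval 7.74 to 7.79) and 9.08% in replicate 2 (9.05 to 9.10). Within the cluster it made up 69.4% and 73.5% of the counts. These intervals reflect read counting alone, because PCR copies of a molecule are not independent. The class of reads that map to several places is outside the total, and no source says whether such reads also enter gene rows. Ranks and shares here and below may therefore favour loci with unique sequence. They are those of rows, and a mature microRNA made by several loci may rank otherwise.

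Mir351, the third hairpin, came next with 28495 and 27014 CPM, a mean of 27754 ± 1047 CPM (SD, n = 2), and supplied 25.5% and 21.9% of the cluster. Mir503, which lies between these neighbours, had only 2530 and 2230 CPM (2380 ± 212). Mir322 exceeded it 30.7-fold in replicate 1 (exact 95% interval 30.2 to 31.2) and 40.7-fold in replicate 2 (40.0 to 41.4), a log2 ratio of 5.14 ± 0.288. Hairpins spaced 200 nucleotides apart thus differed in reads far beyond the spread between libraries. That spread cannot show a bias between sequences that both libraries share. Ratios between different microRNAs, here and below, are therefore ratios of reads. Mir503 over Mir351 had a log2 ratio of -3.55 ± 0.0741.

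Beyond the widest gap, Mir542 had 2408 and 2626 CPM (2517 ± 155). It lay 11.0-fold below Mir351 (log2 ratio of Mir351 over Mir542 3.46 ± 0.143). Its level could not be separated from that of Mir503: the log2 ratio of Mir542 over Mir503 was -0.07 in replicate 1 and 0.24 in replicate 2, and Mir542 was the higher in replicate 2 only. Mir450b, the last hairpin, had 637 and 722 CPM (680 ± 60.1), and Mir503 exceeded it 3.50-fold (log2 1.81 ± 0.256).

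**Figure D1:**
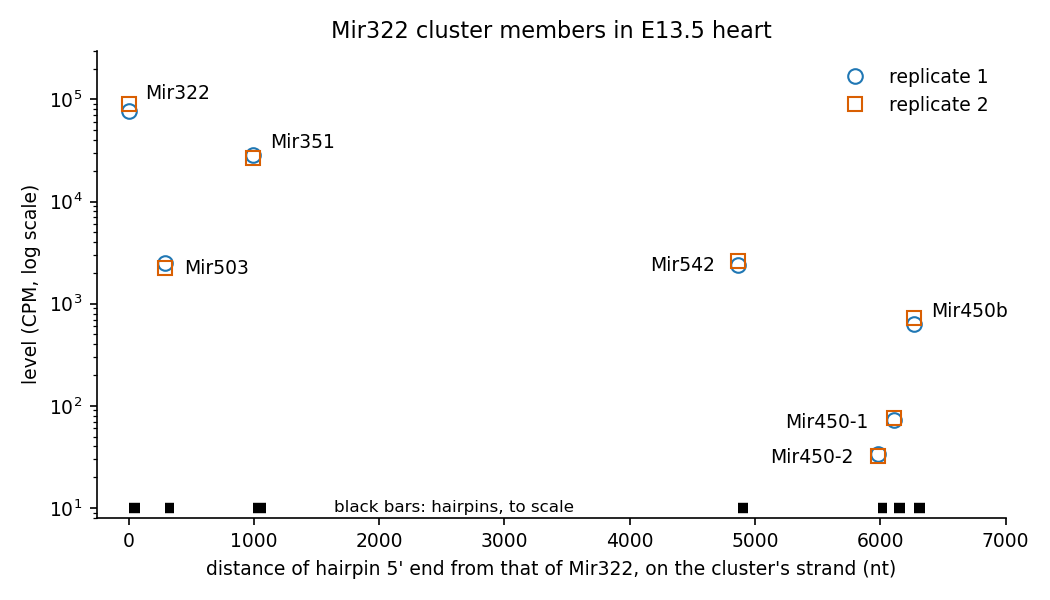
Level of each member in CPM on a log scale against the distance of its hairpin's 5′ end from that of Mir322 in nucleotides, with a circle for replicate 1 and a square for replicate 2. Mir322 and Mir351 stand above the others, and Mir450-1 and Mir450-2 lie far below Mir450b, their neighbour on the 3′ side.

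The miR-450a loci were the lowest rows. Mir450-1 had 403 and 457 counts (72.4 and 75.7 CPM) and Mir450-2 had 189 and 195 counts (33.9 and 32.3 CPM). Mir450b exceeded Mir450-1 9.06-fold (log2 3.18 ± 0.0823) although only 75 nucleotides lie between them, and it exceeded Mir450-2 19.9-fold (log2 4.32 ± 0.177). Mir450-1 was in turn 2.20-fold above Mir450-2 (log2 1.14 ± 0.0943). These loci are also the only members that share 22 bases or more with another hairpin, which is each other's. Their sequences are shown with the stretch of 25 bases they share in capitals, which holds all of miR-450a-5p.
Mir450-2: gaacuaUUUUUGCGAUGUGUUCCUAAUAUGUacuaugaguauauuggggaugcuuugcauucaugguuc
Mir450-1: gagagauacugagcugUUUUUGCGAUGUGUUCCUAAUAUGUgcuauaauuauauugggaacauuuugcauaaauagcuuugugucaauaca
A miR-450a-5p read fits both loci. Reads that map to several places form a class of their own in the tables, 26.9% of reads in replicate 1 and 28.0% in replicate 2, and no source says whether they also enter gene rows. If they do not, these rows count little but the 3p strands, and their levels are lower bounds on miR-450a. The longest run that another member shares with any microRNA hairpin is 19 bases, between Mir450b and Mir450-1. For Mir322, Mir503, Mir351 and Mir542 it is 11 to 13 bases.

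The level therefore did not fall evenly along the cluster. Spearman's rho between distance from Mir322 and mean level was -0.75 over 7 members and -0.70 over the 5 outside the miR-450a loci. Members share libraries and a locus, so this is a description without a p-value. The first 3 hairpins together took 10.9% and 12.0% of all sense counts, and the 4 distal ones 0.315% and 0.346%. Without Mir322 the cluster would have held 3.34% ± 0.104. Of all counts at 120 microRNA rows on the X chromosome, the cluster supplied 78.3% in replicate 1 and 80.3% in replicate 2.

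In the order of levels over all genes, several members had neighbours they could not be separated from. Mir322 lay below Mir143 (84268 and 92601 CPM) by a log2 ratio of -0.07 ± 0.0634, barely more than its SD. It did not differ beyond the spread from Mir126a (log2 ratio of Mir322 over Mir126a 0.05 and 0.46). Mir351 changed places with Mir26b (29707 and 25856 CPM), and it stayed above Mir30e (22573 and 25619 CPM) in both libraries. Mir503 and Mir542 sat in a group of like level with Mir379, Mir296 and Mir361, whose means were 2552, 2405 and 2335 CPM, and neither was separated from its neighbours there. Mir450b lay between Mir15b and Mir708, at means of 689 and 631 CPM, within the spread of both.

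Between the libraries, the members did not move as a unit. The log2 ratio of replicate 1 over replicate 2 was -0.23 for Mir322, 0.18 for Mir503, 0.08 for Mir351, -0.13 for Mir542, 0.07 for Mir450-2, -0.06 for Mir450-1 and -0.18 for Mir450b. A gene was called where its ratio was 1.5 or more either way and its Benjamini-Hochberg adjusted p in an exact conditional binomial test lay under 0.05. None of the 7 members met this, against 17 of 288 genes tested (5.90%). At any ratio, 5 of 7 had an adjusted p under 0.05, against 61.5% of all genes tested, so that share is near the background. Lower in replicate 1 were Mir322, for which the adjusted p was computed as 0 because it is smaller than the software can represent, Mir542 (4.81e-13, exact test) and Mir450b (8.93e-08, exact test), 3 of 7 against 18.4% of all genes. Higher in replicate 1 were Mir503 (8.76e-25, exact test) and Mir351 (9.50e-51, exact test), 2 of 7 against 43.1%. The adjusted p was 0.703 for Mir450-2 and 0.586 for Mir450-1 (exact test). These p-values cover counting error alone and leave out the spread between libraries. The common biological coefficient of variation over all 288 genes, from edgeR, was 0.125, and their median absolute log2 ratio was 0.16. The smallest p that an exact sign-flip permutation test allows with 2 libraries is 0.5.

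The median log2 ratio was -0.06 for the members and 0.10 for all genes tested. With TMM scaling the ratio became -0.33 for Mir322 and 0.08 for Mir503, and the signs of Mir351 (-0.03) and Mir450-2 (-0.03) turned. DESeq2 size factors turned the same signs, to -0.04 for both. The turned ratio of Mir351 also passed the exact test, with an adjusted p of 6.13e-07 under TMM and 3.18e-14 under DESeq2 scaling. With either, 4 of 7 members were lower in replicate 1 at an adjusted p under 0.05 (against 30.2% of genes under TMM and 31.2% under DESeq2 scaling) and 1 of 7, Mir503, was higher (against 28.1% and 25.7%). The direction of Mir351 between the libraries is therefore not settled. Ratios between members do not depend on such scaling. The log2 ratio of Mir322 over Mir503 was lower in replicate 1 than in replicate 2 by 0.41 (difference -0.41), and that of Mir322 over Mir351 by 0.30 (difference -0.30), each with exact counting intervals that do not overlap. Mir322 over Mir542 differed by -0.10 and Mir322 over Mir450b by -0.05. By summed CPM, the endothelial, erythroid, leukocyte and epithelial markers were higher in replicate 1, as were 65.6% of all genes tested. The cardiomyocyte, smooth muscle, skeletal muscle and hepatocyte markers were higher in replicate 2 by the same measure. Within the cardiomyocyte sum, Mir208a went the other way (7349 CPM in replicate 1 and 7178 CPM in replicate 2). The neural sum of 2.51 and 1.49 CPM came from 1 row with few reads and gave no direction. The part of these markers in the ratios between members was not tested.

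**Figure D2:**
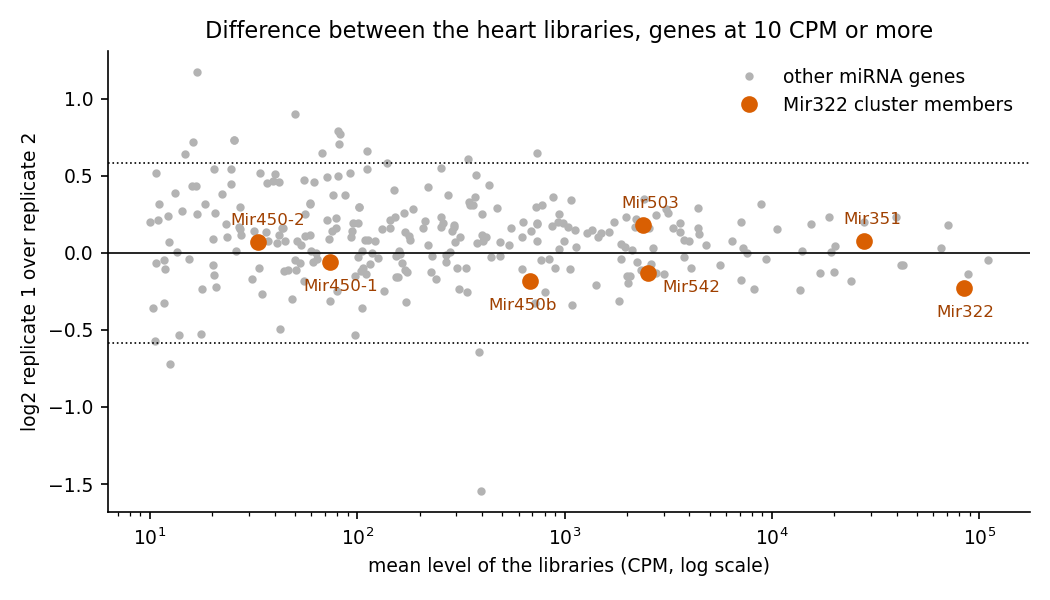
Log2 ratio of replicate 1 over replicate 2 against mean level in CPM on a log scale, with each gene at 10 CPM or more as a point and the 7 members coloured and named. Dotted lines mark a ratio of 1.5 either way; all members lie between them, from -0.23 for Mir322 to 0.18 for Mir503.

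With 2 libraries of the same group, likeness of pattern is limited to a like ratio between them. Among 181 other genes at 100 CPM or more, those nearest to Mir322 were Mir350 and Mir20a, both also at -0.23. Nearest to Mir351 were Mir301 and Mir1981, and nearest to Mir542 were Mir17 and Mir3071.

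Read by seed, Mir322 far exceeded every relative with a row. The other genes whose mature sequence holds the seed AGCAGCA are the miR-15 family, known to restrain the cell cycle and, in the mouse heart, tied to the postnatal halt of cardiomyocyte division, and a few little-known loci. Mir15a had 1857 and 1617 CPM, Mir16-1 1342 and 1226 CPM, Mir15b 723 and 654 CPM, Mir195a 301 and 272 CPM and Mir16-2 219 and 196 CPM. Mir195b, Mir6342, Mir6353 and Mir6419 had 0 counts, which in replicate 1 leaves room for 0.539 CPM at most, and in replicate 2 for 0.497 CPM. Together the 9 relatives reached 4204 ± 337 CPM, so that Mir322 was 17.5-fold above their sum in replicate 1 and 22.9-fold above it in replicate 2 (log2 4.32 ± 0.275). Mir322 thus held 95.2% ± 0.868 of the counts at rows with this seed. It exceeded Mir15a, the highest relative, 48.4-fold (log2 5.60 ± 0.301).

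Mir16-1 and Mir16-2 make the same mature miR-16 and share a run of 23 bases, so their rows may be lower bounds. The ratio of Mir322 to the sum and its share of the seed's counts would then be upper bounds. The class of reads that map to several places is larger than the row of Mir322, so these tables set no limit on how far they would fall. Mir497, of the same seed, has no row of its own. The 2292 and 1882 counts opposite to the row of Mir497b lie on its strand and would amount to 411 and 312 CPM, which was looked up after the data were seen and would lower the log2 ratio to 4.20. These figures take every read of a row to carry the listed seed, although part may come from the other strand of the hairpin.

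Mir503, the cluster's second gene with these bases 2 to 7, was itself above each miR-15 family row: it exceeded Mir15a 1.37-fold (log2 0.45 ± 0.0126) and Mir16-1 1.85-fold (log2 0.89 ± 0.0363). Between the libraries, Mir503 (log2 replicate 1 over replicate 2 0.18) and the 5 family rows with counts (0.13 to 0.20) were higher in replicate 1, as were 65.6% of all genes tested, whose median was 0.10. With TMM scaling the family rows were at 0.03 to 0.10. Mir322 was higher in replicate 2 under each scaling. None of these rows was called at a ratio of 1.5.

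Among rows of its seed, Mir351 likewise had the highest level. Mir125a had 3430 and 2866 CPM, Mir125b-2 549 and 531 CPM and Mir125b-1 384 and 306 CPM, and Mir6367 and Mir6394 had 0 counts. The miR-125 genes are known from differentiation in many lineages. Mir351 was 6.53-fold above the sum of its relatives in replicate 1 and 7.29-fold above it in replicate 2 (log2 2.79 ± 0.113), and held 87.3% ± 0.866 of the counts at rows with this seed. Mir125b-1 and Mir125b-2 make the same mature sequence and share 24 bases, so their rows too may be lower bounds, and the ratio and share of Mir351 upper bounds. Whether Mir351 exceeds mature miR-125b itself cannot be told from these rows. Against Mir125a, which has no such copy, Mir351 was 8.85-fold higher (log2 3.15 ± 0.129). The other seeds of the cluster had few relatives: Mir6966, with the seed of miR-542-5p, held 1 and 2 counts, and Mir6352, with that of miR-450b-3p, held 0.

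**Figure D3:**
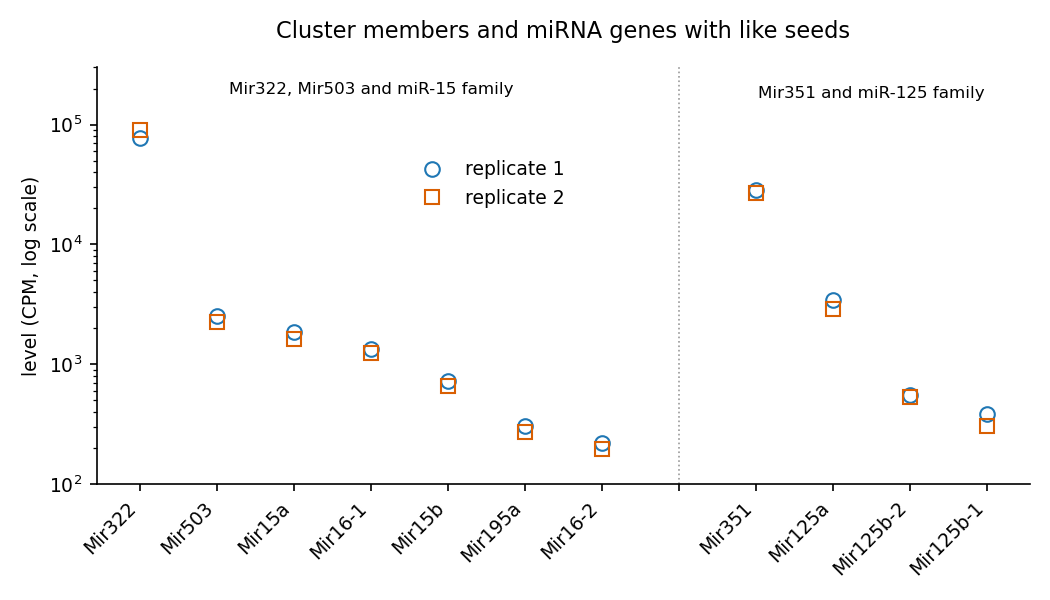
Level in CPM on a log scale of Mir322, Mir503 and the miR-15 family rows with counts (left) and of Mir351 and the miR-125 rows with counts (right), with a circle for replicate 1 and a square for replicate 2. Mir322 at 77629 and 90777 CPM and Mir351 at 28495 and 27014 CPM stand above all of their relatives in both libraries.

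Uneven levels along a cluster were seen at other loci as well. Of 9 clusters on 1 strand with at least 4 rows at 1 CPM, the Mir322 cluster held the highest share, 11.8% ± 0.825, followed by the clusters led by Mir17 (3.29% ± 0.210) and by Mir487b (3.17% ± 0.170). Its highest and lowest rows were 11.31 apart on the log2 scale, a range that ranked 3 of 9. Those of the Mir487b and Mir17 clusters were 12.86 and 11.74. Each range covers rows at 1 CPM or more, and the Mir487b cluster has rows below that. Leaving out rows that share 22 bases with another locus, the range was 6.95 for the Mir322 cluster, 12.86 for the Mir487b cluster and 9.53 for the Mir17 cluster. The number of rows differs, from 7 in the Mir322 cluster to 6 and 34 in the Mir17 and Mir487b clusters, and a range grows with it.

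In the Mir17 cluster, known from proliferation, Mir17 (19058 and 20785 CPM) and Mir20a (7528 and 8844 CPM) stood above Mir18 (2638 and 2887 CPM) and Mir92-1 (2136 and 1819 CPM). Mir19a (28.5 and 25.3 CPM) and Mir19b-1 (6.64 and 4.97 CPM) were lowest. Mir19b-1, like the miR-450a loci, shares 25 bases with another locus, and Mir92-1 shares 22, so both rows may be lower bounds. The share of the leading gene in a cluster with such rows may then be an upper bound. In the imprinted Mir487b cluster the 34 rows ran from 0 counts at Mir453 to 7566 ± 11.9 CPM at Mir487b itself. The leading gene held 71.5% ± 2.89 of the Mir322 cluster, against 60.6% ± 0.155 of the Mir17 cluster and 23.9% ± 1.32 of the Mir487b cluster, a difference larger than the spread between libraries and not tested.

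**Figure D4:**
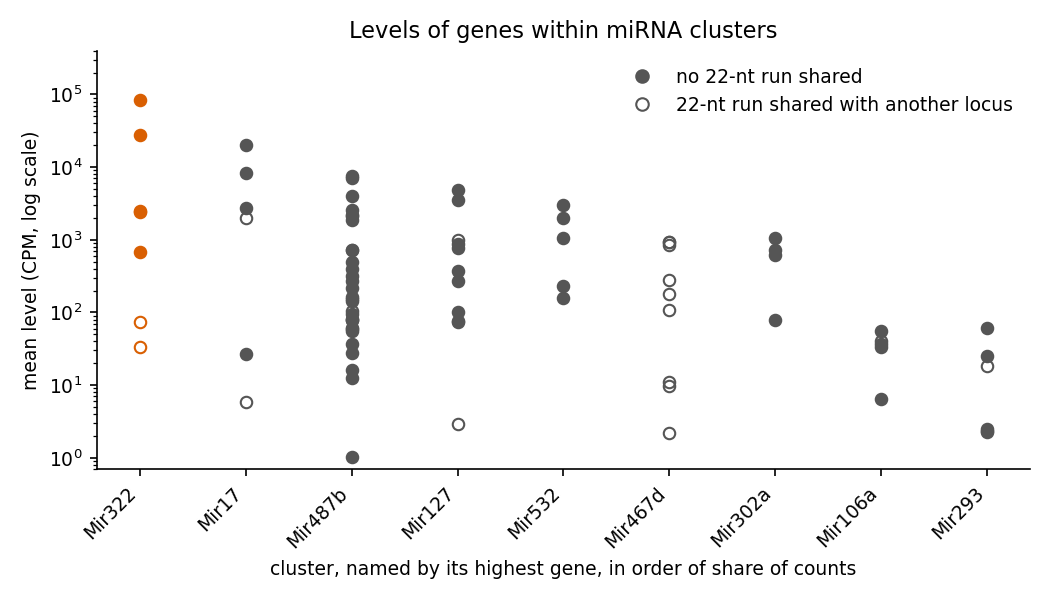
Mean level in CPM on a log scale of every row at 1 CPM or more in each of 9 microRNA clusters, named by their highest gene and ordered by share of counts, with open circles for rows that share 22 bases with another locus. The Mir322 cluster has the highest leading row at 84203 CPM, and its open circles, Mir450-1 and Mir450-2, are its lowest.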

How the data were processed

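The authors deposited whole-number read counts per microRNA gene for each library, made from reads aligned to mm10 with GENCODE M4 according to their deposited notes. For aligner, counter and trimming, the names are not given in the sources used. Of 3 count columns, the one on the gene's strand was used. Unmapped, multi-mapping and unassigned read classes stayed out of library sizes: in replicate 1 unmapped reads were 21.2% and sense counts 45.9% of 12136246 reads, and in replicate 2 they were 17.2% and 49.2% of 12282789.

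Names and coordinates came from GENCODE M21 by gene identifier (1894 of 1973 rows matched), sequences from RefSeq GRCm38.p6. CPM, SDs over the libraries, ratios with a pseudocount of 1 CPM, exact intervals, and an exact two-sided conditional binomial test over genes at a mean of 10 CPM were computed in Python 3.11.15 (scipy 1.17.1). For a count of 0 an allowance of 3 counts was set, which is no strict maximum. Shared runs were searched on both strands over all GENCODE M21 microRNA hairpins. Clusters joined rows whose starts lie at most 10000 nucleotides apart. Dispersion and TMM factors came from edgeR 4.0.16 and size factors from DESeq2 1.42.0, in R 4.3.3. The binomial and dispersion steps were tested on simulated data.

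Named genes were all members, genes of the same seeds, rank neighbours, genes of nearest library ratio, leading clusters and cell type markers. The cluster was picked for study, and its members and the lists chosen, with earlier results of these data known, although the rule for members uses names only.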

Additional observations from a re-analysis of the deposited data

How the results depend on the processing

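The share of the Mir322 cluster was 11.8% and became 13.2% with Mir335, the most abundant gene, left out of the total, and 3.34% with Mir322 left out of the cluster. Each library alone gave 11.2% and 12.3%. Leaving Mir335 out of the total raised all 7 member levels by more than their SD, Mir322 to 94632 CPM, and counting both strands lowered Mir351, Mir450-1 and Mir450-2 by more than theirs, to 26348, 70.3 and 31.4 CPM. The larger or smaller total accounts for these shifts by construction. The log2 ratio to relatives of the same seed was 4.32 for Mir322 and 2.79 for Mir351, and single libraries gave 4.13 to 4.52 and 2.71 to 2.87. Leaving out relatives with a 22-base copy gave 4.95 and 3.15, which by construction can only be higher and says nothing of reads missing from those rows. TMM and DESeq2 scaling turned the library ratios of Mir351 and Mir450-2 to -0.03 and -0.04. Genes that differed between the libraries numbered 17, and 39 at a minimum of 1 CPM, 45 with no minimum, 6 at 100 CPM, 2 at a ratio of 2 and 177 at any ratio. No member was called at a ratio of 1.5 with TMM or DESeq2 scaling, a pseudocount of 0.1 CPM, both strands or another minimum, and the miR-450a rows fell out of the test at 100 CPM. The coefficient of variation ran from 0.113 to 0.134. No paired analysis was possible because there is only 1 group, and with a library left out no difference between libraries exists. With 5569959 counts or more in a library, depth limited what could be said of the relatives at 0. Why they had no counts was not tested. The miR-450a rows held 189 to 457 counts, and reads that fit both loci may be missing from them. Every SD rests on 2 libraries.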
